A study of Saccharomyces cerevisiae with 6 samples.

Results

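The 9 genes described here encode the glucose sensors and glucose repression regulators of budding yeast: the sensors SNF3 and RGT2, the corepressors MTH1 and STD1, the DNA-binding repressors RGT1, MIG1, MIG2 and MIG3, and the hexokinase HXK2. They were chosen by systematic open reading frame name (YDL194W, YDL138W, YDR277C, YOR047C, YKL038W, YGL035C, YGL209W, YER028C and YGL253W, in the same order). All 9 were found among 5657 measured genes, each read by 1 probe set of a type that is not marked as sharing signal with other genes. Total RNA of 6 cultures of Saccharomyces cerevisiae was hybridised to Affymetrix arrays, 1 array per culture. In 3 cultures BSA had been added, and 3 control cultures held no BSA. BSA usually stands for bovine serum albumin, a protein of cow serum, but the labels give the abbreviation alone, and the amount added and the growth medium could not be taken from them. Both groups were the strain CEN.PK 113-7D, a haploid laboratory yeast labelled as wildtype, with no engineered allele in either group. All cultures were grown aerobically in baffled shake flasks, with 50 mL of medium in a 250 mL flask, at 30 °C. The treatment protocol puts sampling at 48 h, whereas the design text places it early in growth on glucose, so the labels leave the glucose status of the cultures unsettled.

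Values are log2 expression per probe set as deposited, so a difference of 1 is a doubling. Array medians lay between 7.56 and 7.61. Taken over all genes, differences between arrays of 1 group had SDs of 0.117 to 0.198, except for control replicates 2 and 3 (0.0567), and those between arrays of different groups 0.625 to 0.732. The median gene changed by -0.13 with BSA. Averaged over each array, 5 markers of a-cells, the mating type of this strain, read 7.96 to 8.02 with BSA and 8.24 to 8.51 without, and 4 markers of alpha-cells 5.94 to 6.03 and 6.02 to 6.17. Single markers overlapped, since BAR1 of a-cells averaged 6.55 with BSA, below SAG1 of alpha-cells at 6.66.

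Yeast reads external glucose through Snf3 and Rgt2, membrane proteins that resemble hexose transporters but act as receptors, Snf3 at low and Rgt2 at high glucose. When glucose binds, casein kinases at the membrane mark the corepressors Mth1 and Std1 for destruction by the Grr1 ubiquitin ligase, the repressor Rgt1 leaves its promoters, and hexose transporter genes are transcribed. In parallel, the zinc finger repressors Mig1, Mig2 and Mig3 silence genes for other carbon sources. Mig1 is held off by the kinase Snf1 when glucose is scarce, and the glycolytic enzyme Hxk2 also acts with Mig1 in the nucleus. The circuit feeds back on itself, since MIG2 and STD1 are repressed through Rgt1, and MTH1 through Mig1 and Mig2.

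The comparison asked how transcript levels differed in cultures with BSA against cultures without it. Of the 9 regulators, 8 rose with BSA and 1, HXK2, fell. Both sensors, both corepressors and all 4 DNA-binding repressors were among those that rose. MTH1 rose most, 3.08-fold, followed by MIG2 at 2.25-fold and MIG3 at 1.69-fold, while SNF3 rose least, 1.16-fold. Calls rest on a Benjamini-Hochberg adjusted p under 0.05 in limma over all 5657 genes, by which 75.4% of all genes passed, 28.3% higher with BSA and 47.1% lower. The median log2 fold change of the 9 genes was 0.56, against -0.13 over all genes. MTH1 and MIG2 were the 2 regulators at least 2-fold higher, a rise that 7.04% of all genes reached. No regulator was 2-fold lower, a fall that only 1.96% of all genes reached. In all 9 genes the 3 arrays with BSA did not overlap with the 3 without, but so it was in 79.5% of all genes. An array of bulk RNA does not tell a change in all cells from a change in the share of cells that express the gene.

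**Figure D1:**
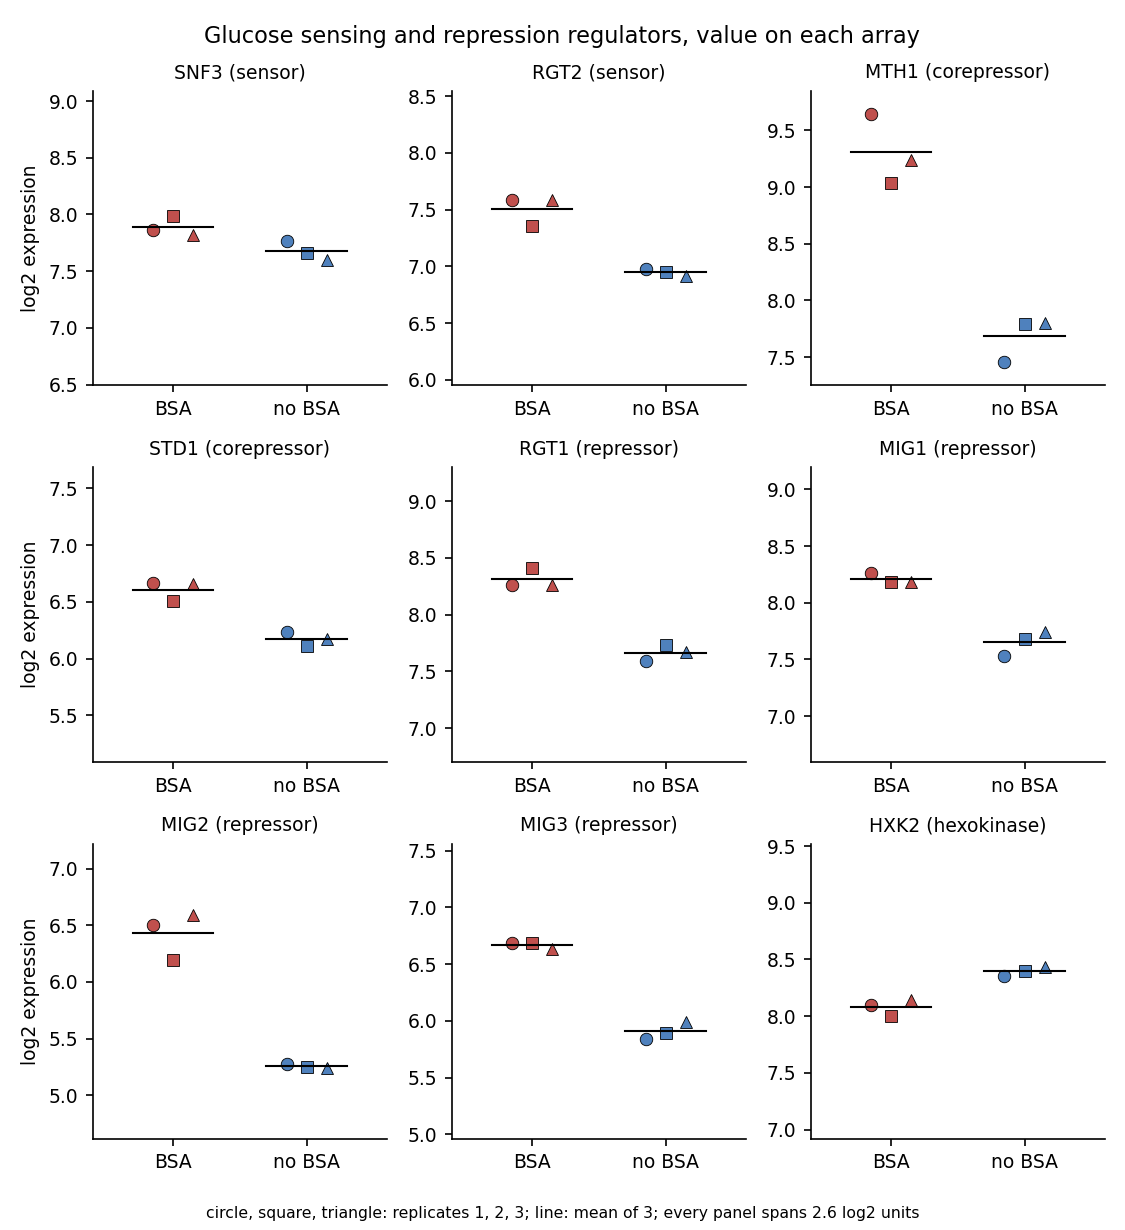
Log2 expression of each regulator on each array, with BSA at left and no BSA at right; symbols mark replicates 1 to 3, lines the mean of 3 arrays, and every panel spans the same number of log2 units. MTH1 and MIG2 show the widest gaps between groups, SNF3 the narrowest, and HXK2 is the only panel with the BSA arrays below the others.

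Among the sensors, RGT2, the receptor for high glucose, read 7.59, 7.36 and 7.58 on the arrays with BSA (replicates 1 to 3), against 6.98, 6.95 and 6.91 without. Every BSA array stood above every control array, by at least 0.38. Its log2 fold change was 0.56 ± 0.07 (SE; limma adjusted p = 0.000242). SNF3, the receptor for low glucose, read 7.87, 7.98 and 7.82 with BSA, against 7.76, 7.66 and 7.60 without. The lowest BSA array and the highest control array of SNF3 were only 0.06 apart, less than the SD within either group (0.0855 with BSA and 0.0824 without). Its log2 fold change of 0.22 ± 0.07 passed (limma adjusted p = 0.0185, 95% interval 0.06 to 0.37). The SNF3 call was lost without BSA replicate 2 (adjusted p = 0.0598), without control replicate 2 (adjusted p = 0.061) or 3 (adjusted p = 0.074), and with control replicates 2 and 3 counted as 1 sample (adjusted p = 0.0655). Over all alternatives tried for SNF3 the adjusted p lay between 0.00187 and 0.074, and its change between 0.17 and 0.35.

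The corepressors moved the same way by different amounts. MTH1, the corepressor that holds Rgt1 on hexose transporter promoters when glucose is absent, read 9.65, 9.03 and 9.24 with BSA, against 7.46, 7.79 and 7.80 without. These are also the most scattered values of the 9 genes, with an SD of 0.312 with BSA and 0.197 without, yet the groups were 1.23 apart at their closest. The log2 fold change was 1.62 ± 0.16 (SE; limma adjusted p = 6.93e-05), and 97.4% of all genes changed less in either direction. For the smaller changes of STD1, HXK2 and SNF3 that share was 56.6%, 42.2% and 30.2%. With BSA the MTH1 signal was above that of 86.4% of genes, and without BSA above 52.5%. STD1, its paralog, which also takes part in activating Snf1, read 6.66, 6.51 and 6.65 with BSA, against 6.24, 6.11 and 6.17 without. Its arrays lay close together in both groups, and its log2 fold change was 0.43 ± 0.06 (limma adjusted p = 0.000439). STD1 was dim: only 20.0% of genes were dimmer with BSA and 9.86% without.

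RGT1, the zinc cluster protein through which both corepressors act on DNA, read 8.27, 8.41 and 8.26 with BSA, against 7.59, 7.73 and 7.67 without. The gap of 0.53 between the groups was wider than the range within either. Its log2 fold change was 0.65 ± 0.06 (SE; limma adjusted p = 6.74e-05).

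All 3 MIG genes rose. MIG1, the main repressor of genes for sucrose, galactose and respiratory growth, read 8.26, 8.18 and 8.19 with BSA, against 7.53, 7.68 and 7.74 without. It changed by 0.56 ± 0.07 (SE, log2; limma adjusted p = 0.000158). MIG2, whose product shares Mig1 targets and whose transcript is induced by glucose through release of Rgt1, read 6.51, 6.19 and 6.59 with BSA, against 5.28, 5.25 and 5.24 without. The control arrays of MIG2 agreed to within 0.04 and lay near the floor of the arrays, whose lowest values were 4.82 to 4.85, with only 2.81% of genes dimmer. With BSA 15.7% of genes were dimmer. The log2 fold change of MIG2 was 1.17 ± 0.10 (limma adjusted p = 3.16e-05), a value that can understate the change of a transcript so near the floor. MIG3, the paralog of MIG2, read 6.68, 6.68 and 6.64 with BSA, against 5.84, 5.90 and 5.99 without. It had the smallest adjusted p of the 9 genes (limma adjusted p = 1.85e-05) and a log2 fold change of 0.76 ± 0.06. It too was dim, above 21.8% of genes with BSA and 7.11% without.

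HXK2, the main hexokinase of cells on glucose and the partner of Mig1 in the nucleus, went against the other 8. It read 8.10, 8.00 and 8.15 with BSA, against 8.36, 8.40 and 8.44 without. All BSA arrays lay below all control arrays, by at least 0.21. The log2 fold change was -0.32 ± 0.06 (SE; limma adjusted p = 0.00135), a 1.24-fold lower level. Because the median gene changed by -0.13, HXK2 lay at -0.18 relative to it. The other glucose-phosphorylating enzymes did not share 1 direction. HXK1, the hexokinase isoform repressed on glucose, rose by 0.53 ± 0.13 to 9.59 ± 0.15 with BSA, against 9.06 ± 0.24 without (SD, n = 3; limma adjusted p = 0.0065). The glucokinase gene GLK1 changed by -0.24 ± 0.05, a call lost when each array was centred on the median deviation from the gene means.

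**Figure D2:**
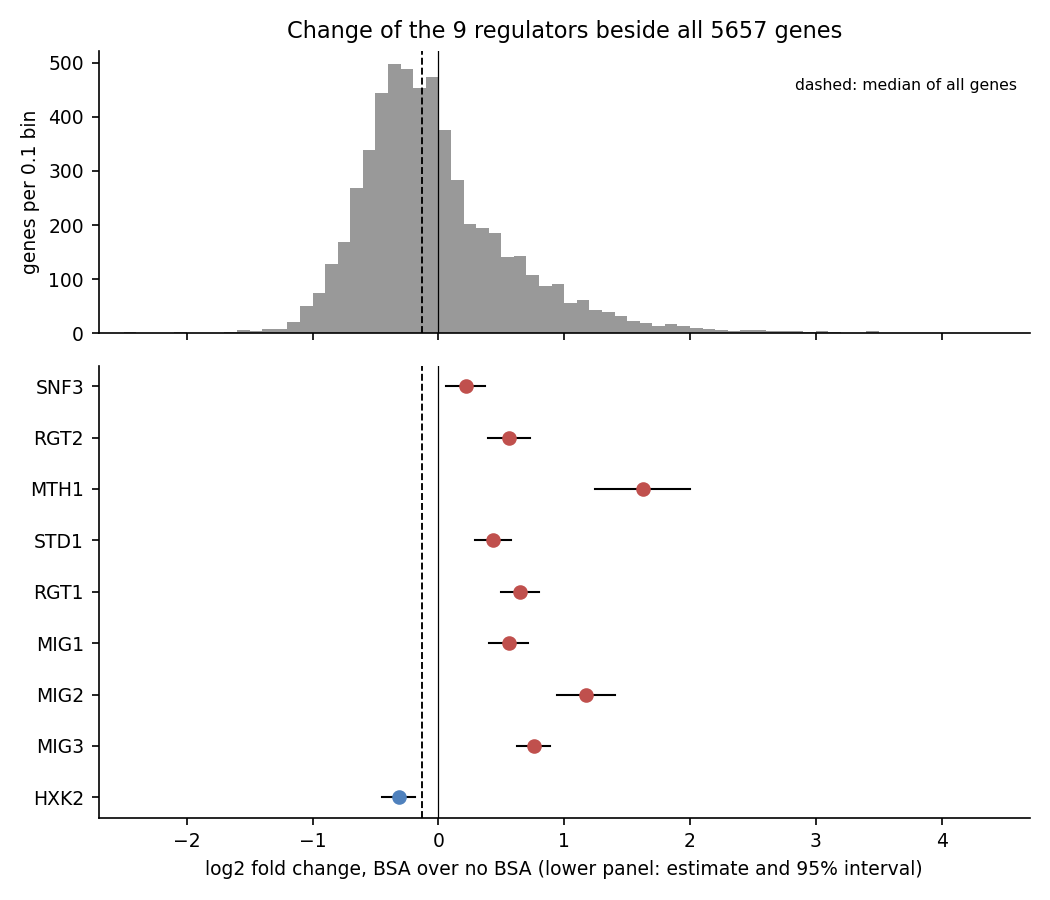
Histogram of the log2 fold change (BSA over no BSA) of all genes, above the estimate and 95% interval of each regulator on the same axis; the dashed line is the median of all genes. The intervals of 8 regulators lie above 0, those of MTH1 and MIG2 out in the right tail of the histogram, and the interval of HXK2 lies below 0 and below the median gene.

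Genes of the same role were compared through the per-array difference of their log2 values, in 5 comparisons. MTH1 rose more than STD1 by 1.19 ± 0.21 (SE, log2), MIG2 more than MIG1 by 0.61 ± 0.14, and MIG3 more than MIG1 by 0.20 ± 0.04. MIG3 minus MIG2 came to -0.41 ± 0.14 and SNF3 minus RGT2 to -0.34 ± 0.13. In each comparison the 3 BSA arrays did not overlap with the 3 control arrays. Single genes did so in 79.5% of all genes, and the share among other pairs of genes was not computed. A two-sided exact permutation test gave p = 0.1 for each, also after Benjamini-Hochberg adjustment over the 5, which is the smallest p that 3 arrays against 3 allow, so this test could not pass 0.05 for any of them. None of the 5 differences changed sign under quantile normalization, after cyclic loess or without any single array, whereas centring an array shifts both genes alike and leaves them as they are.

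Proteins that relay the sensor signal were mixed at the transcript level. Of 9 listed genes for the casein kinases, the Grr1 ubiquitin ligase and the Cyc8-Tup1 corepressor complex, 4 rose and 4 fell (median -0.12). For this list and those below, the background is that 28.3% of all genes were higher and 47.1% lower (median -0.13). CDC34, the ubiquitin-conjugating enzyme of these ligases, read 10.65, 10.23 and 10.19 with BSA, against 8.86, 8.75 and 8.75 without. The groups were far apart, and it rose by 1.57 ± 0.12 (SE, log2; limma adjusted p = 2.09e-05). The ligase subunit genes HRT1 (1.39 ± 0.06) and SKP1 (0.37 ± 0.06) also rose. GRR1, the subunit that recognises phosphorylated Mth1 and Std1, fell, with 7.61, 7.81 and 7.65 with BSA, against 8.22, 8.24 and 8.26 without (-0.55 ± 0.06; limma adjusted p = 0.000136). The corepressor genes CYC8 (-0.25 ± 0.05) and TUP1 (-0.33 ± 0.08) fell too, but the CYC8 call was lost under median deviation centring and cyclic loess. Of the casein kinases, YCK2 changed by -0.38 ± 0.07 and YCK1 by 0.19 ± 0.07. The YCK1 call had an adjusted p = 0.0605 with the replicate number as a block and was lost under 6 other alternatives besides the stricter thresholds. CDC34, HRT1, SKP1 and their partners serve other ubiquitin ligases as well, so their levels are not those of a glucose circuit alone.

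In the branch that controls Mig1, 5 of 11 listed genes rose and 2 fell (median -0.07). The kinase gene SNF1 itself changed by -0.07 ± 0.06 (SE, log2) and its activating subunit gene SNF4 by -0.11 ± 0.06, neither past the threshold. TOS3, an upstream kinase that activates Snf1, read 8.82, 8.75 and 8.88 with BSA, against 6.25, 6.30 and 6.25 without. That was a rise of 2.55 ± 0.05 (limma adjusted p = 2.92e-07), and 99.3% of all genes changed less. The other upstream kinase genes changed little, ELM1 by -0.18 ± 0.05 and SAK1 by -0.11 ± 0.05, the second not past the threshold, and the ELM1 call was lost under 7 alternatives besides the stricter thresholds. The beta subunit genes SIP2 (0.85 ± 0.07) and GAL83 (0.70 ± 0.07), whose products place Snf1 in the cell, rose, as did REG1 (0.43 ± 0.06), which targets a phosphatase to Snf1. GLC7, that phosphatase, changed by -0.21 ± 0.05, a call lost under both the median deviation centring and cyclic loess, which left 0 genes of this branch lower and 5 higher. Without BSA replicate 3 or control replicate 2 or 3, 1 gene was lower.

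Of 17 listed hexose transporter genes, the targets of Rgt1 among them, 15 were measured, of which 4 rose and 5 fell (median -0.06). HXT3, a low-affinity carrier repressed by Rgt1, read 8.18, 7.76 and 8.02 with BSA, against 7.00, 7.04 and 6.94 without, a rise of 0.99 ± 0.10 (SE, log2; limma adjusted p = 7.99e-05). HXT1, the low-affinity carrier of high glucose, read 5.77, 5.61 and 5.86 with BSA, against 5.40, 5.39 and 5.39 without. It rose by 0.35 ± 0.07 and stayed at the dim end of the arrays in both groups. HXT4 rose by 0.75 ± 0.14 and HXT7 by 0.88 ± 0.13, read through a probe set whose type allows signal of near-identical copies such as HXT6. HXT2, a high-affinity carrier repressed both by Rgt1 and at high glucose by Mig1, fell furthest, with 5.49, 5.41 and 5.50 with BSA, against 6.85, 6.38 and 6.40 without (-1.08 ± 0.12; limma adjusted p = 0.000138). The falls of HXT10, HXT11 and HXT14 were at most 0.27 in dim signals. With arrays centred on the median deviation 2 carriers were lower and 6 higher. Without BSA replicate 3 or control replicate 2, 3 were lower. HXT5, a carrier of slow-growing cells, read 9.97, 10.38 and 10.47 with BSA, against 10.86, 10.87 and 10.87 without. It too was called lower (-0.59 ± 0.12), and its signal was bright in both groups. Carriers known from high glucose (HXT1, HXT3) and from low glucose (HXT7) thus stood among those that rose.

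Of 16 listed genes repressed on glucose, many of them through Mig1, 15 were measured, of which 7 rose and 3 fell (median 0.19). HAP4, the activator subunit for respiratory genes, rose most, to 11.41 ± 0.08 with BSA, against 9.58 ± 0.24 without (SD, n = 3). REG2, a regulatory subunit of Glc7, rose by 1.55 ± 0.13 (SE, log2) and CAT8, the activator of gluconeogenic genes, by 1.25 ± 0.07. FBP1, the gluconeogenic fructose bisphosphatase gene, rose by 1.20 ± 0.23 and EMI2, a paralog of GLK1, by 1.04 ± 0.08. SUC2, the invertase gene and the classic Mig1 target, read 7.75, 7.06 and 7.11 with BSA, against 6.41, 6.71 and 6.68 without. BSA replicate 1 stood well above the other arrays, and the rise of 0.71 ± 0.18 (limma adjusted p = 0.00822) was lost in an ordinary linear model per gene with no shared variance (adjusted p = 0.0582). The falling genes were ADH2 (-0.76 ± 0.15), the alcohol dehydrogenase for ethanol use, PCK1 (-0.39 ± 0.15), which opens gluconeogenesis, and GAL1 (-0.15 ± 0.05), the galactokinase. The calls of PCK1 and GAL1 were each lost under 9 alternatives besides the stricter thresholds, and without BSA replicate 1 or 3 or control replicate 3 only 1 gene, ADH2, was lower. ICL1 (-0.30 ± 0.17), MLS1 (0.19 ± 0.13) and JEN1 (-0.05 ± 0.07), genes for growth on acetate and lactate, did not pass. MLS1 was called higher under some alternatives, such as without control replicate 1 (limma adjusted p = 0.0194).

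**Figure D3:**
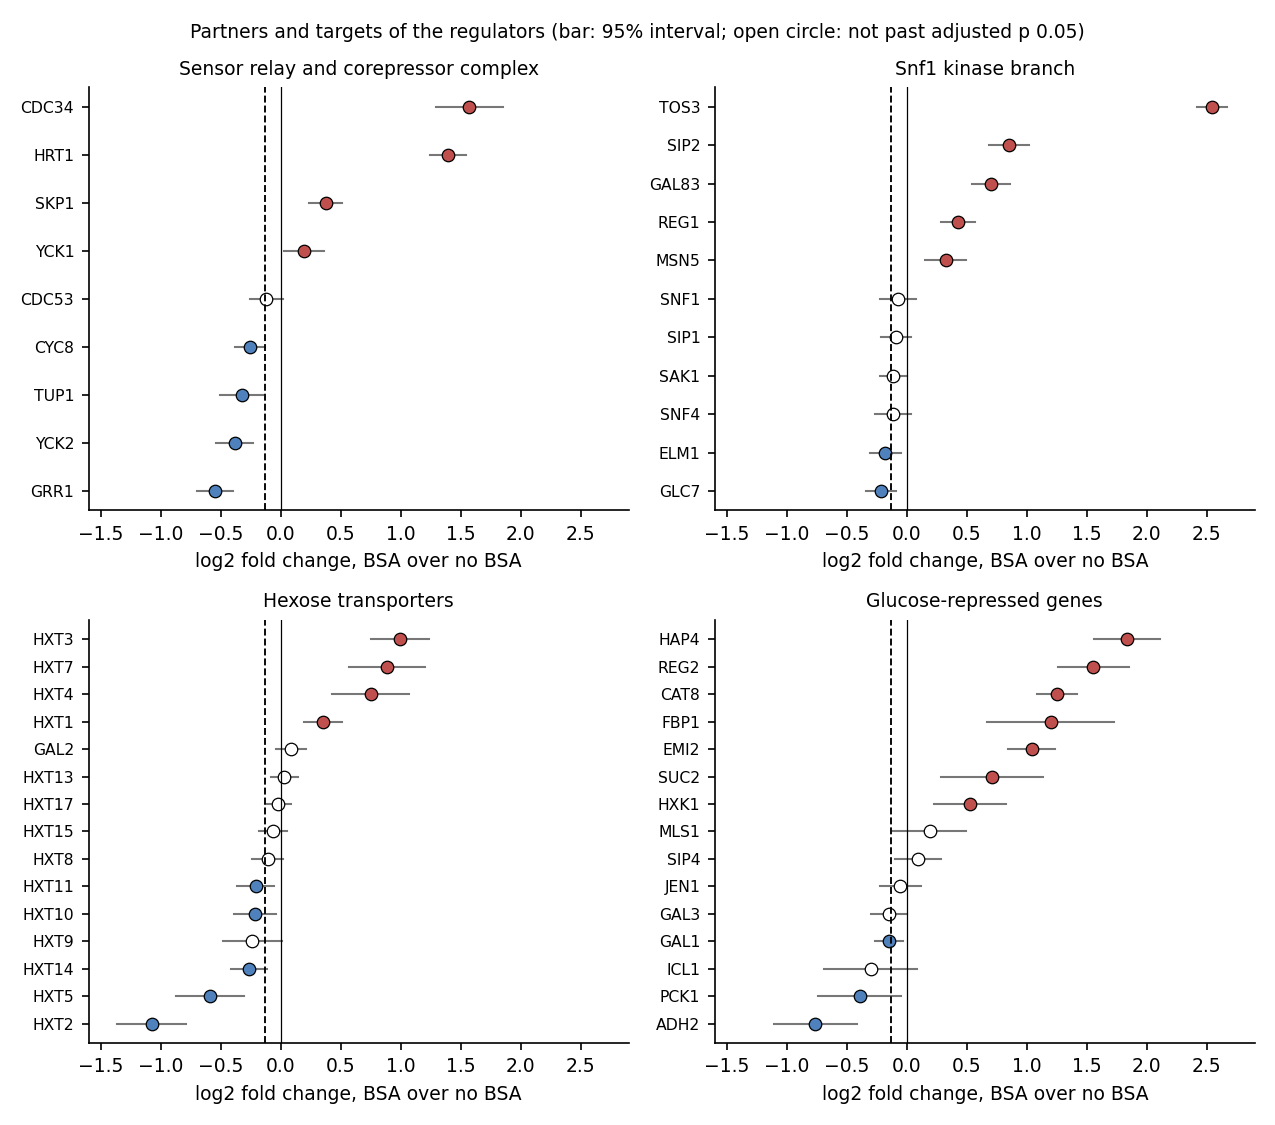
Log2 fold change (BSA over no BSA) with its 95% interval for the measured genes of 4 lists around the regulators; filled circles passed an adjusted p of 0.05, open circles did not, and the dashed line is the median of all genes. TOS3, HAP4, CDC34, REG2 and HRT1 stand at the high end and HXT2 at the low end.

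The direction of the 9 regulators did not depend on how arrays were scaled. Under quantile normalization, centring on the array median, centring on the median deviation from the gene means, and cyclic loess, MTH1 changed by 1.57 to 1.76 and MIG2 by 1.21 to 1.31 on the log2 scale. HXK2 ranged from -0.37 under quantile normalization to -0.18 under median deviation centring (limma adjusted p = 0.026 in that setting). Over all genes the split was less fixed: 37.6% of called genes were higher as deposited, against 50.3% with arrays centred on the median deviation and 49.0% after cyclic loess.

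**Figure D4:**
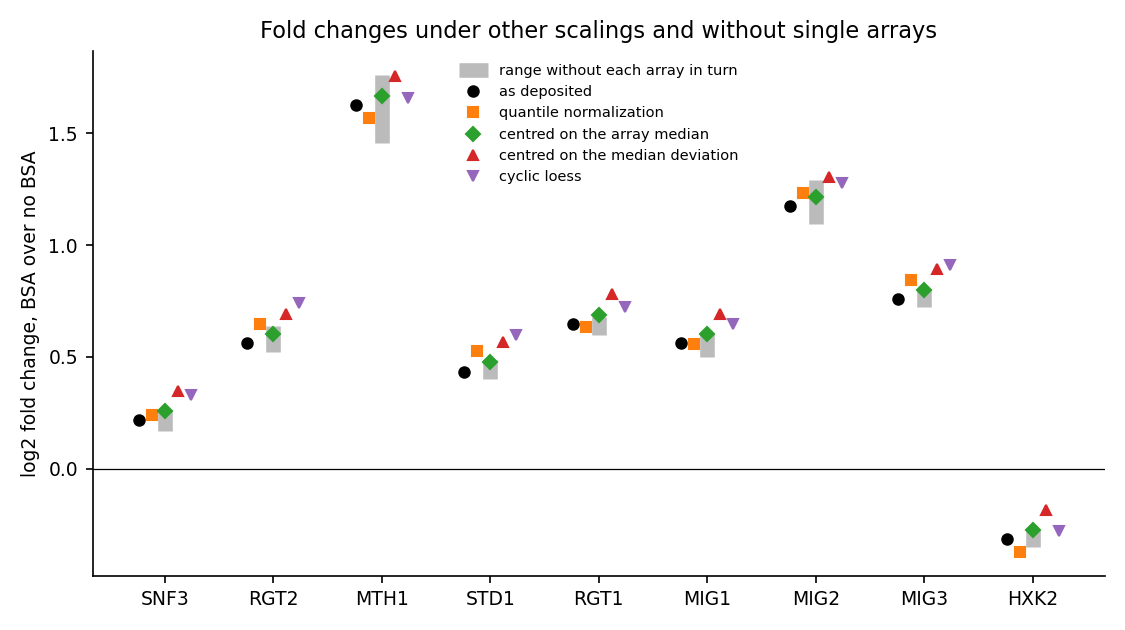
Log2 fold change (BSA over no BSA) of each regulator as deposited and under 4 other scalings (symbols), with the range of values when each array is left out in turn (grey bars). The symbols of each gene stay on 1 side of 0, with HXK2 below it and the other 8 above.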

How the data were processed

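The authors deposited 1 table of log2 expression values for 5705 probe sets on 6 arrays and an annotation that pairs each probe set with an open reading frame. Per the submitters' processing notes, the values were made with PLIER and R 2.10.1. The background correction and normalization are not stated in the sources used here, and base 2 was read from the range of the values. Gene names came from the RefSeq table of assembly R64, which named 5646 of 5657 genes. Its chromosome and start positions gave the order of genes from which neighbours were taken, and no sequences were used. The brightest probe set of each gene was kept. Samples were grouped by the labels.

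Groups were compared with limma 3.58.1 in R 4.3.3 (lmFit and eBayes) over all genes, with Benjamini-Hochberg adjustment and a threshold of 0.05, tested on simulated data. The members, gene lists, pairs and alternatives were chosen with earlier results of these data known, so the lists are described by counts and medians. From a list with more than 4 called genes, the 3 highest and 2 lowest changes among them were named, from shorter ones all called genes. Genes from the lists outside this rule were chosen after their values were seen. From the sensor relay and Snf1 lists these were YCK1, CYC8, TUP1, SNF1, SNF4, SAK1 and REG1. From the other lists they were GAL1, ICL1, MLS1, JEN1, HXT1, HXT10, HXT11, HXT14, FBP1, EMI2, SUC2, GPR1 and GPA2. The neighbours SEC31, DBP5, PTM1, RAT1 and SCM3 were also chosen after their values were seen. Same-numbered replicates did not deviate together (r of 0.103, 0.0187 and 0.0426 over genes), so the samples were not treated as paired. The number of arrays limits the precision, and no detection calls were used.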

Additional observations from a re-analysis of the deposited data

How the results depend on the processing

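With 22 alternatives, 191 regulator results were set beside the main fit, and 179 kept their side of the threshold. None changed direction. Many could not, since alternatives that alter only the error model, the threshold, the block or the genes kept leave each regulator's fold change as it is. Only other scalings, array weights and left-out or merged arrays could move it. SNF3 (0.22 as deposited) lost its call at an adjusted p under 0.01 and with control replicates 2 and 3 as 1 sample (0.19), and ranged from 0.17 to 0.26 without single arrays. A required 2-fold change left 2 regulators higher and 0 lower (in limma without that requirement 1 was lower), since STD1 (0.43), RGT2 (0.56), RGT1 (0.65), MIG1 (0.56), MIG3 (0.76), SNF3 (0.22) and HXK2 (-0.32) changed less, and 398 genes higher and 111 lower. Leaving out the dimmest 25% of genes removed STD1, MIG2 and MIG3 and left 5 regulators higher; leaving out the dimmer 50% also removed RGT2 and left 4, with 1045 of all genes higher and 1188 lower. Without single arrays 7 to 8 regulators were higher and 1 lower. With the replicate number as a block, 8 were higher and 1 lower, and of all genes 1597 were higher and 2669 lower, against 1603 and 2665 without the block, so it changed no regulator's call. Of 352 recomputed counts in the partner and marker lists, 290 stayed within 1.5 times; counts of higher genes moved further in 15 and of lower genes in 47. The signals of MIG2, MIG3 and STD1 lay below the first quartile of every array, which limits what their fold changes show.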

Other observations

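Among genes that stand beside the regulators on the chromosomes, by their order in the reference gene table, MIG2 neighbours SIP2 and its paralog MIG3 neighbours GAL83, the paralog of SIP2. All 4 genes of these neighbouring couples rose with BSA, MIG2 by 1.17 ± 0.10 (SE, log2) next to SIP2 by 0.85 ± 0.07, and MIG3 by 0.76 ± 0.06 next to GAL83 by 0.70 ± 0.07. Not all neighbours shared a direction: of 17 measured neighbours of the 9 regulators, 5 rose, 5 fell and 7 did not pass the threshold. Among all genes 28.3% were called higher and 47.1% lower. SEC31, beside SNF3, changed by -0.92 ± 0.06, and DBP5, beside STD1, by -0.75 ± 0.06. PTM1, beside RGT1, changed by -0.66 ± 0.07. RAT1, on the other side of STD1, rose by 0.61 ± 0.07, and SCM3, beside RGT2, by 0.42 ± 0.08.

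The genes most like each regulator over the 6 arrays were found by the Euclidean distance between log2 profiles, each centred on its own mean. MTH1 was closest to YKR015C (distance 0.161) and GPX1 (0.176), and MIG2 to HOB2 (0.129) and AQY3 (0.205). The remaining 7 regulators had closer matches, at distances of 0.0506 to 0.0967. These were STV1 and UFE1 for SNF3, COX7 and ROM1 for RGT2, YSA1 and UBC6 for STD1, BRE4 and CDH1 for RGT1, SDH1 and WAR1 for MIG1, SPS1 and HSV2 for MIG3, and PRM1 and RIC1 for HXK2. No regulator was among the 2 closest genes of another, but with only 2 genes listed for each this does not tell how alike the regulators were.

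Within the cultures with BSA, replicate 2 gave the lowest value of 6 regulators, RGT2, MTH1, STD1, MIG1, MIG2 and HXK2, whereas it was lowest for 28.4% of all genes. It gave the highest BSA value of the other 3, SNF3, RGT1 and MIG3, and of 36.7% of all genes. Hexose transporter genes went both ways: HXT1, HXT3 and HXT4 were lowest in that replicate, whereas others, such as HXT10, HXT11 and HXT14, were highest. In MIG1, and in MIG3 for its highest value, the margin was below the second decimal.

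In the glucose branch that works through protein kinase A, the receptor gene GPR1 changed by -0.15 ± 0.06 (SE, log2) and the G protein gene GPA2 by 0.08 ± 0.09, neither past the threshold. Some alternatives did call them: GPR1 lower under quantile normalization (limma adjusted p = 0.0184), and GPA2 higher without control replicate 1 (limma adjusted p = 0.0434). RGS2, which ends signalling by that G protein, rose by 1.97 ± 0.15 (limma adjusted p = 2.05e-05), to 8.37 ± 0.29 with BSA, against 6.40 ± 0.18 without (SD, n = 3).

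Of 5 a-cell markers, STE6 (-0.70 ± 0.07) and BAR1 (-1.18 ± 0.10) fell and the other 3 did not pass. Of 4 alpha-cell markers, MF(ALPHA)1 rose by 0.29 ± 0.07 and MF(ALPHA)2, STE3 and SAG1 changed by -0.20 ± 0.06, -0.22 ± 0.06 and -0.31 ± 0.06, calls each lost under at least 1 scaling. The part of these markers in the results was not tested.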
